A study of Mus musculus with 12 samples.

Results

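Interferon-stimulated genes were described here as a set of 33 genes chosen by symbol, and all 33 were found among the 24054 genes of the deposited tables. All 33 also passed the low-count filter in every comparison below. They were measured by RNA sequencing of fetal liver cells from mouse embryos at E13.5, sorted as LT-HSC (long-term haematopoietic stem cells, LSK cells positive for CD150 and negative for CD48) or as MPP (multipotent progenitors, LSK cells negative for CD150 and positive for CD48). The 12 libraries made 4 groups of 3. The 3 mutant libraries of each cell type were labelled Setdb1 p/p;vav-cre. In MPP, control 3 was labelled Setdb1 +/p;vav-cre, and controls 1 and 2 were Setdb1 +/p;+/+, without Cre. In LT-HSC, controls 2 and 3 were Setdb1 +/p;vav-cre and control 1 was Setdb1 +/p;+/+. Every group therefore carried the p allele, which the labels do not define, and vav-cre drives recombination in blood cells. Setdb1 encodes a histone methyltransferase that silences endogenous retroviruses, and the design asks how its mutation changes expression in each cell type. The labels do not say whether the libraries came from separate fetuses, or whether LT-HSC and MPP libraries came from the same ones, so p-values measure the spread between these samples, which may be technical.

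Type I interferons bind a receptor made of Ifnar1 and Ifnar2, whose kinases phosphorylate Stat2. Stat2 acts with Irf9 in a transcription factor that binds the interferon-stimulated response element in the promoters of many interferon-stimulated genes. Their products detect and degrade viral RNA, hold back virus particles, modify other proteins with Isg15, and include Usp18, which shuts the receptor off. In haematopoietic stem cells, interferon is known to push quiescent cells into division, and low interferon signalling takes part in the emergence of stem cells in the embryo.

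The libraries held 10119416 to 14113198 expected counts over all genes. Levels below are expected counts per 1000000 (CPM) after TMM scaling between libraries unless TPM is named. The labelled gates were seen in the data: Slamf1, which encodes CD150, was at 34.6 to 41.5 CPM in LT-HSC libraries and 1.08 to 2.41 CPM in MPP libraries, while Cd48 was at 10.6 to 30.6 CPM in LT-HSC libraries and 149 to 261 CPM in MPP libraries. Setdb1 itself was at 86.6, 117 and 98.5 CPM in MPP mutants against 141, 95.4 and 87.9 CPM in MPP controls, and at 66.3, 66.9 and 80.1 CPM in LT-HSC mutants against 84.3, 73.4 and 108 CPM in LT-HSC controls. Neither difference passed the test (adjusted p = 0.598 in MPP and 0.651 in LT-HSC). The labels do not say which part of the gene the p allele changes, so these gene totals do not check the genotype. The 3 LT-HSC mutant libraries stood further apart from each other than the libraries of any other group, with a chi-square statistic per gene of at least 26.1 between any pair of them. No pair of replicates agreed within sampling noise, and the lowest value of that statistic over all pairs was 5.22.

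A core of the response element was searched in the promoters of the members. A window of the 250 bases before and 50 bases after the gene's start was found in RefSeq's annotation of mouse build GRCm38.p6 for 25 members, and 12 of these 25 members (48%) held the core there on either strand, spelled GAAA, any 2 bases, then GAAA. Of the 27025 genes with such a window, 1079 (3.99%) held it. The promoters of 6 members are shown because these hold the core and are the most abundant such members given in full below. Each is the 250 bases before the start, written 5′ to 3′ on the strand of the gene, with matches of the core in capitals (TTTC, 2 bases and TTTC where the match lies on the opposite strand). The windows are chr8:71537473-71537722 for Bst2 (minus strand), chr5:120907526-120907775 for Oas1a (minus), chr7:104465194-104465443 for Trim30a (minus), chr10:128270248-128270497 for Stat2 (plus), chr19:34640639-34640888 for Ifit1 (plus) and chr19:34583279-34583528 for Ifit3 (plus).
Bst2: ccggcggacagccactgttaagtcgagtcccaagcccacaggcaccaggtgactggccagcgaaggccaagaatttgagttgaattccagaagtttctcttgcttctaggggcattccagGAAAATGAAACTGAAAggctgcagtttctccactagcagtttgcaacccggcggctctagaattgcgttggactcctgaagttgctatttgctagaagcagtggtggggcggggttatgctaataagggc
Oas1a: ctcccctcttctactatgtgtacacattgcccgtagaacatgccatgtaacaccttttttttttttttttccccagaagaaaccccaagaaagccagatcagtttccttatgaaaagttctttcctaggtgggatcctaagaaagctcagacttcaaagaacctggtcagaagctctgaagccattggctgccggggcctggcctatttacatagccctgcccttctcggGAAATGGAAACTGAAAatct
Trim30a: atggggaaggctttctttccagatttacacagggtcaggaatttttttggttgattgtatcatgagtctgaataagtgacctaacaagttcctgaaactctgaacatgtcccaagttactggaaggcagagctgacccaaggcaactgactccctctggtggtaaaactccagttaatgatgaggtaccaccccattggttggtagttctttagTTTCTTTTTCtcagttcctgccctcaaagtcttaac
Stat2: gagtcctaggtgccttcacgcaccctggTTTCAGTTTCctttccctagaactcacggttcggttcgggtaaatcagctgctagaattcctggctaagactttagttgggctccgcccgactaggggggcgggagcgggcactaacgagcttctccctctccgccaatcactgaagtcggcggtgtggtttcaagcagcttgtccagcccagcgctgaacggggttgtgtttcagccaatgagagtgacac
Ifit1: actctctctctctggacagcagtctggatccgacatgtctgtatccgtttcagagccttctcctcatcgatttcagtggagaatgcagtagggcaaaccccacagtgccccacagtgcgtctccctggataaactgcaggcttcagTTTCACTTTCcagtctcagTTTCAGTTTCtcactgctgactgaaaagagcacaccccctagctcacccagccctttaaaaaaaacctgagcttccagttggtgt
Ifit3: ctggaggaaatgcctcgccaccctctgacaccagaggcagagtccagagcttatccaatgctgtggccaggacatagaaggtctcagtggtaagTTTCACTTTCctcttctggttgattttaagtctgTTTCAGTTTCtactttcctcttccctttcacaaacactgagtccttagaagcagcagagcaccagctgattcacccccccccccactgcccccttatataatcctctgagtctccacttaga
In Bst2 and Oas1a 2 matches overlapped. The downstream match lay 124 bases before the start in Bst2 and 14 bases before it in Oas1a. Ifit1 and Ifit3 each held 2 separate matches, beginning 104 and 85 bases before the start in Ifit1 and 156 and 122 bases before it in Ifit3. Trim30a held 1 match 36 bases before the start, and Stat2 held 1 at 222 bases. The Ifit3 window lies inside that gene's annotated span, which begins at chr19:34583119. The Oas1a window reaches into the span of Oas1a, which ends at chr5:120907544. For both genes the distances are to the start used for the window, not to the outer end of the span. A match describes the letters only and does not show that a factor bound there.

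In MPP mutants the interferon-stimulated genes were lower as a group. Of the 33 members, 28 fell and none rose (edgeR's quasi-likelihood test, adjusted p under 0.05), where 18.5% of the 12392 genes tested fell and 16.5% rose. The median log2 fold change of the members was -1.07, a ratio of 0.475, against -0.01 over all genes tested. In 21 members the decrease was at least 2-fold, as in 6.99% of all genes tested. The 3 mutant libraries lay below all 3 control libraries in 26 members, as in 25.0% of all genes tested. The largest decreases were those of Ifi27l2a at -3.43 (SE 0.448), Ifit3 at -2.67 (SE 0.307), Mx1 at -2.28 (SE 0.354) and Mx2 at -2.18 (SE 0.427). The 12 members whose promoters held the core shown above had a median of -1.11, and the 13 whose promoters did not had a median of -0.93. Both medians leave out the 8 members without a window: Usp18, Oas2, Mx1, Mx2, Rtp4, Parp14, Ifi27 and Ifi27l2a. In bulk samples such as these, fewer cells of a type that expresses a gene and less RNA of that gene per cell cannot be told apart.

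**Figure D1:**
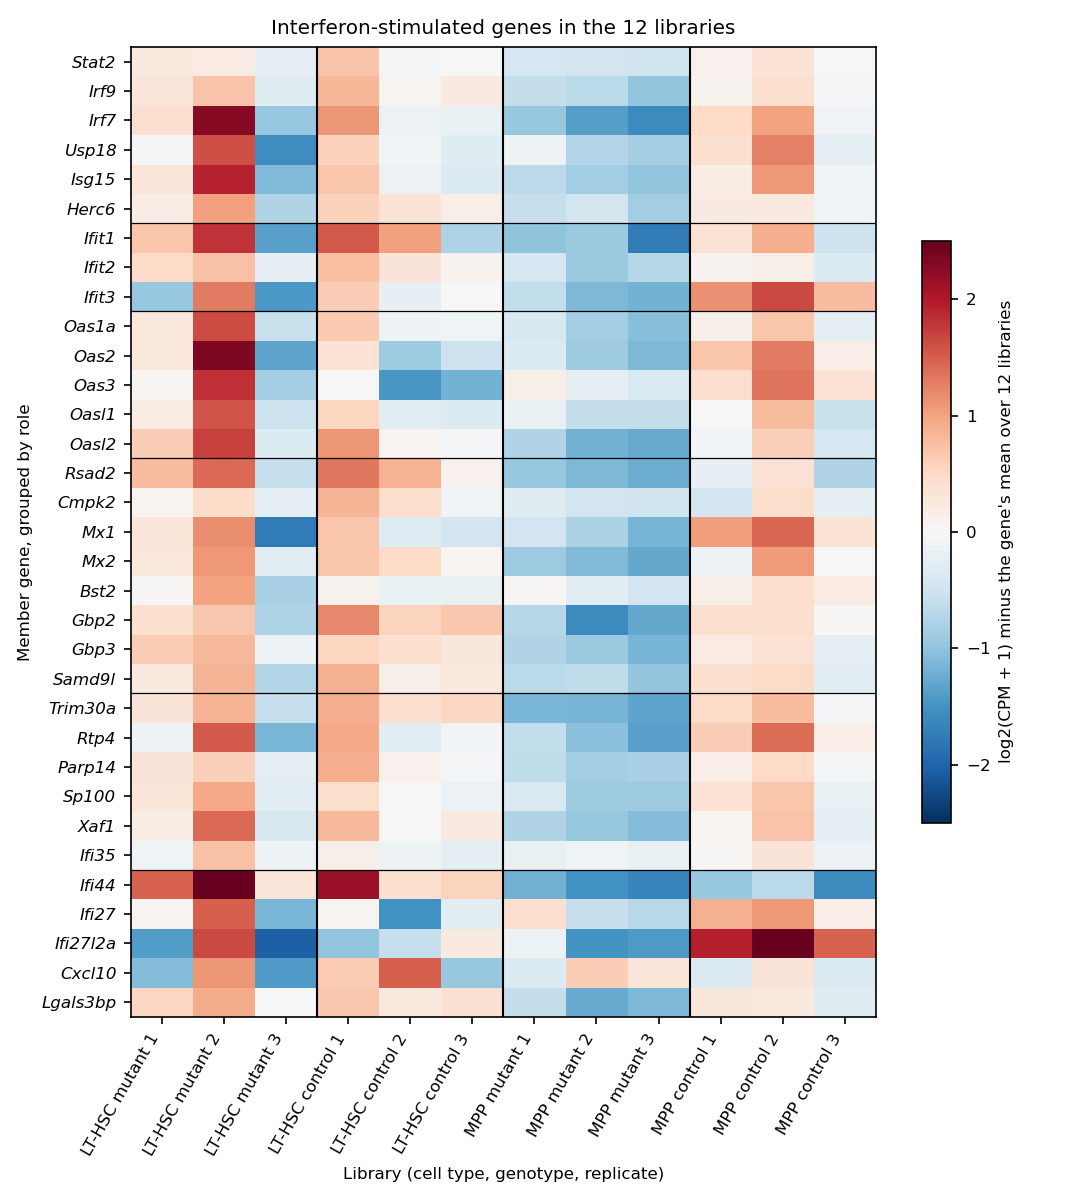
Level of each of the 33 interferon-stimulated genes (rows, ordered by role) in each of the 12 libraries (columns, mutants left of controls within each cell type), as log2 CPM minus the gene's mean over the 12 libraries. MPP mutants are low in most rows, and the LT-HSC mutant libraries differ from each other, with mutant 2 highest of the 3 in 32 rows and mutant 3 lowest in 33.

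The decrease in MPP mutants came with changed levels of markers of other cell types, whose part in it was not tested. Of 16 macrophage markers tested, 15 fell, among them Vcam1 (log2 fold change -6.22, adjusted p = 1.54e-07), Csf1r, the receptor for the macrophage growth factor (-2.60, adjusted p = 8.52e-06), and Emr1, which encodes the F4/80 antigen (-2.57, adjusted p = 1.69e-05). The summed level of the 18 listed macrophage markers was 347, 221 and 356 CPM in MPP mutants against 1456, 1222 and 1011 CPM in MPP controls, with no overlap. With this sum as a covariate, none of the 33 members fell, their median log2 fold change was -0.53, and 10 of the 12392 genes were called in either direction, 1 of them (0.00807%) lower. All 9 plasmacytoid dendritic cell markers tested fell, among them Siglech, at 0, 0 and 0.169 CPM in MPP mutants against 4.66, 5.41 and 4.96 CPM in MPP controls, where a count of 0 allows up to 0.259 CPM in MPP mutant 1 and 0.245 CPM in MPP mutant 2. The summed level of the 11 listed markers was 215, 173 and 172 CPM in MPP mutants against 392.3, 375 and 365 CPM in MPP controls, and that list includes Bst2, itself a member. Of 14 lymphoid markers 10 fell, and of 17 red cell markers 15 rose. Of 16 hepatoblast markers 8 fell, at a median over the 16 of -2.06, and the summed level of the 19 listed was 132, 142 and 109 CPM in MPP mutants against 409.8, 292 and 614 CPM in MPP controls. Of 15 granulocyte and monocyte markers 6 rose and 5 fell. Beside all these marker counts, 18.5% of all genes tested in MPP fell and 16.5% rose. Ly6a, an interferon-inducible gene that encodes the Sca-1 antigen used in the LSK gate, also fell (-1.07, SE 0.152, adjusted p = 0.000339).

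The genotypes of the controls limit the comparison further. The 3 MPP mutants, all with vav-cre, lay below the 1 MPP control with vav-cre in 27 of the 33 members, as in 39.8% of all genes tested, and below both controls without it in 31 members, as in 28.7%. Against that 1 control alone, with MPP fitted separately, 14 of the 33 members fell (8.99% of all genes tested) at a median of -0.62. In that fit the only spread between libraries is that of the 3 mutants, and the lone control is assumed to vary like them. In a joint fit of all 12 libraries 12 members fell, where 10.2% of all genes did. With vav-cre as a covariate in the joint fit 1 member fell, Trim30a, where 4.76% of all genes did, and in the joint fit without the Cre-negative controls no member fell, where 0.561% of all genes did.

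**Figure D2:**
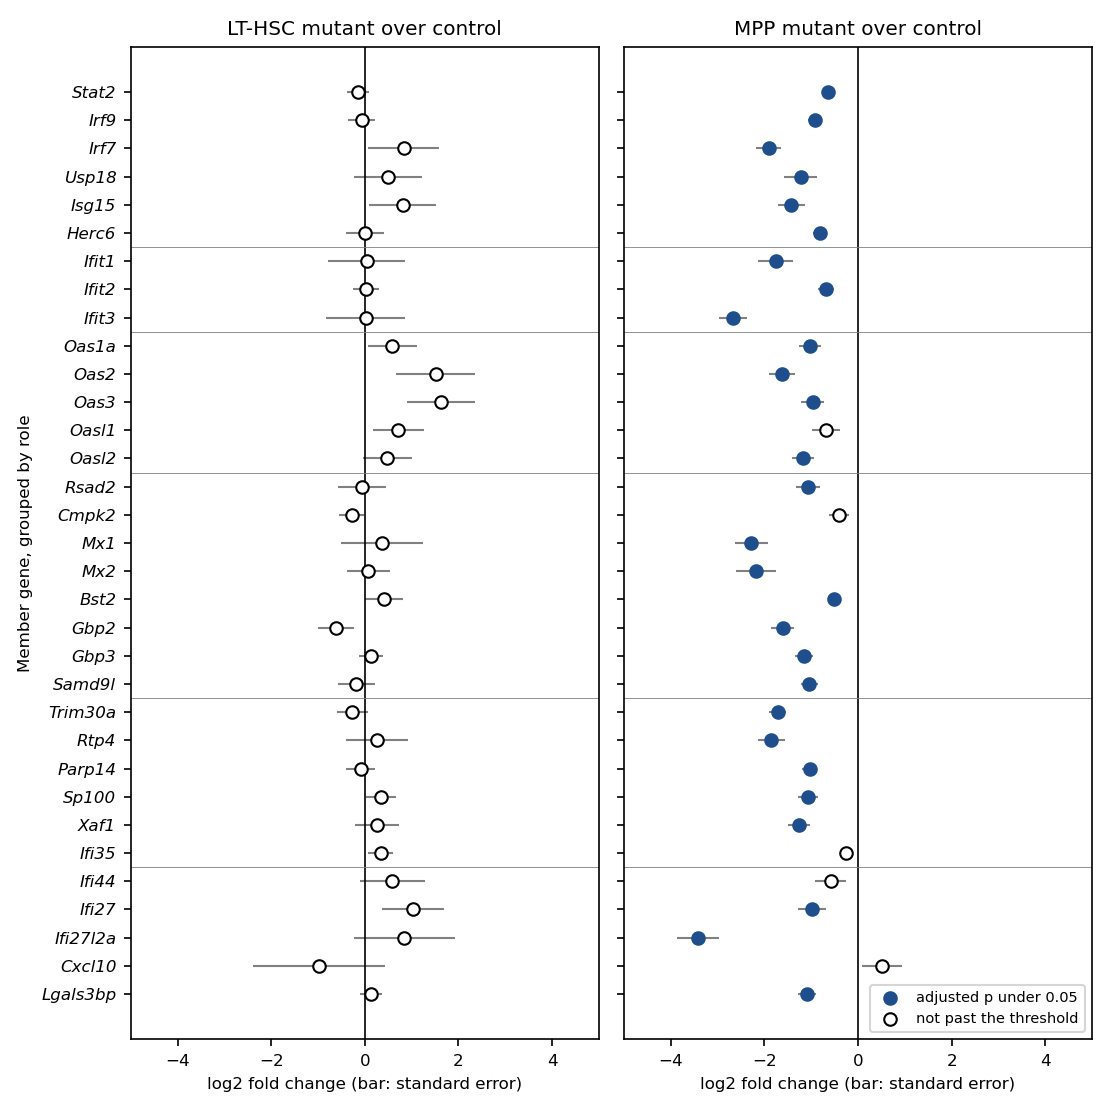
Log2 fold change of each of the 33 members with its standard error, mutant over control, in MPP and in LT-HSC. The MPP values run between -3.43 and 0.51 with 32 of 33 below 0, and the LT-HSC values run between -0.98 and 1.63 with wider errors.

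Among the 6 genes of signalling and feedback all 6 fell in MPP mutants, at a median log2 fold change of -1.08. Stat2, the member of the factor that carries its activation domain, was at 38.5, 37.4 and 36.8 CPM in MPP mutants, against 56.4, 66.7 and 52.0 CPM in MPP controls (log2 fold change -0.65, SE 0.116, adjusted p = 0.00143). Irf9, its DNA-binding partner, was at 58.6, 55.4 and 44.5 CPM in MPP mutants, against 94.2, 118 and 85.7 CPM in MPP controls (-0.93, SE 0.140, adjusted p = 0.000488). Neither gene overlapped between the groups, and the controls without Cre, 1 and 2, were the higher ones. Irf7, which amplifies interferon production, was at 19.0, 13.7 and 11.7 CPM in MPP mutants, against 53.2, 76.6 and 34.98 CPM in MPP controls (-1.91, SE 0.265, adjusted p = 0.000292). Its highest mutant was below its lowest control. The other members of the group fell too: Isg15, the ubiquitin-like modifier (-1.43, SE 0.286), Usp18, which removes it (-1.23, SE 0.346), and Herc6, the main ligase for Isg15 in mice (-0.81, SE 0.159).

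The 3 Ifit genes encode proteins that bind foreign RNA, and all 3 fell. Ifit1 was at 5.31, 5.60 and 2.78 CPM in MPP mutants, against 15.2, 22.9 and 7.86 CPM in MPP controls (-1.76, SE 0.366, adjusted p = 0.00353). Ifit2 was at 25.6, 17.6 and 20.6 CPM in MPP mutants, against 36.8, 38.0 and 26.8 CPM in MPP controls (-0.69, SE 0.175, adjusted p = 0.0106). Ifit3 was at 2.75, 1.63 and 1.52 CPM in MPP mutants, against 11.6, 16.9 and 8.76 CPM in MPP controls (-2.67, SE 0.307, adjusted p = 8.22e-05). None of the 3 overlapped between mutants and controls. Counts that were not whole numbers, a sign that reads were shared out between similar genes, occurred in 92% of libraries for Ifit3 and in 75% for Ifit1, so their split from near copies is uncertain.

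The oligoadenylate synthetase family makes the second messenger that switches on RNase L, and 4 of its 5 members fell. Oas1a, whose promoter is shown above, was at 44.0, 31.9 and 27.4 CPM in MPP mutants, against 63.6, 95.1 and 49.4 CPM in MPP controls (-1.03, SE 0.231, adjusted p = 0.00552). Reads for Oas1a were shared with similar genes in 100% of libraries, so its level is uncertain. Oas2 was at 17.0, 11.4 and 9.53 CPM in MPP mutants, against 36.1, 54.8 and 24.6 CPM in MPP controls (-1.62, SE 0.284, adjusted p = 0.00127). Oasl2, which makes oligoadenylates and carries ubiquitin-like domains, was at 35.2, 25.6 and 24.4 CPM in MPP mutants, against 56.7, 90.0 and 43.5 CPM in MPP controls (-1.18, SE 0.239, adjusted p = 0.00311). The groups did not overlap in these 3 genes. Oas3 fell (-0.97, SE 0.254), while Oasl1, which in mice represses translation of Irf7, was at -0.69 (SE 0.302, adjusted p = 0.0972) and did not pass.

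Of 8 antiviral effectors 7 fell. Bst2, or tetherin, which holds budding virus particles at the membrane, was at 79.3, 63.8 and 55.6 CPM in MPP mutants, against 85.9, 105 and 89.7 CPM in MPP controls (-0.51, SE 0.135, adjusted p = 0.0124). Samd9l, an inhibitor of translation and cell growth, was at 29.2, 29.7 and 23.4 CPM in MPP mutants, against 62.4, 66.0 and 39.1 CPM in MPP controls (-1.04, SE 0.187, adjusted p = 0.00148). Both were separated between the groups, Bst2 by a narrow gap. Cmpk2, a mitochondrial nucleotide kinase, was at 30.7, 27.6 and 26.9 CPM in MPP mutants, against 27.3, 52.4 and 32.0 CPM in MPP controls (-0.41, SE 0.208, adjusted p = 0.153), and the groups overlapped. Its neighbour on chromosome 12, Rsad2, which makes a chain-terminating nucleotide, fell (-1.07, SE 0.259). Mx1 (-2.28) and Mx2 (-2.18), dynamin-like GTPases, fell, as did the guanylate-binding proteins Gbp2 (-1.61) and Gbp3 (-1.15). Shared reads make Gbp3, Mx1 and Mx2 uncertain as well, with fractional counts in 100% of libraries for Gbp3 and in 50% for each Mx gene.

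Among 6 nuclear and other regulators 5 fell. Trim30a, a TRIM-family protein that restrains NF-kB signalling in mice, was at 21.8, 21.3 and 19.1 CPM in MPP mutants, against 68.7, 85.2 and 48.4 CPM in MPP controls (-1.72, SE 0.184, adjusted p = 5.19e-05), the lowest p of the 33, with fractional counts in 92% of libraries. Rtp4, a chaperone of cell-surface receptors, was at 29.8, 22.0 and 17.4 CPM in MPP mutants, against 71.4, 124 and 51.8 CPM in MPP controls (-1.86, SE 0.290, adjusted p = 0.000615). Both were more than 2-fold lower at the mean and did not overlap. Ifi35 was at 59.0, 62.1 and 59.3 CPM in MPP mutants, against 68.5, 84.5 and 60.7 CPM in MPP controls (-0.26, SE 0.123, adjusted p = 0.123), and mutant 2 lay above control 3. Xaf1, which counters the apoptosis inhibitor XIAP, fell (-1.26, SE 0.238). Sp100, a scaffold of nuclear bodies (-1.07, SE 0.215), and Parp14, an ADP-ribosyltransferase (-1.04, SE 0.152), fell as well. Sp100 had fractional counts in 58.3% of libraries, so its level is uncertain too.

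Of the 5 genes for Ifi27 and Ifi44 proteins and secreted proteins 3 fell. Lgals3bp, a secreted glycoprotein, was at 80.2, 50.3 and 55.0 CPM in MPP mutants, against 148, 143 and 98.1 CPM in MPP controls (-1.08, SE 0.189, adjusted p = 0.00126). Ifi27 was at 58.5, 28.7 and 26.3 CPM in MPP mutants, against 80.5, 92.5 and 48.6 CPM in MPP controls (-0.98, SE 0.295, adjusted p = 0.0238). Lgals3bp was separated between the groups, while mutant 1 overlapped with control 3 in Ifi27. Ifi44 was at 2.93, 2.17 and 1.85 CPM in MPP mutants, against 3.65, 4.66 and 1.98 CPM in MPP controls (-0.58, SE 0.335, adjusted p = 0.199). Ifi27l2a was at 5.68, 1.63 and 1.77 CPM in MPP mutants, against 27.4, 49.6 and 19.4 CPM in MPP controls. Its annotated span overlaps that of Ifi27, so reads of this pair may not be separated, though fractional counts occurred in 0% of libraries for both. Cxcl10, a chemokine, was the 1 member above 0, at 0.51 (SE 0.423, adjusted p = 0.373), and was rare, at 1.10, 3.07 and 2.28 CPM in MPP mutants against 1.09, 2.33 and 1.07 CPM in MPP controls.

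**Figure D3:**
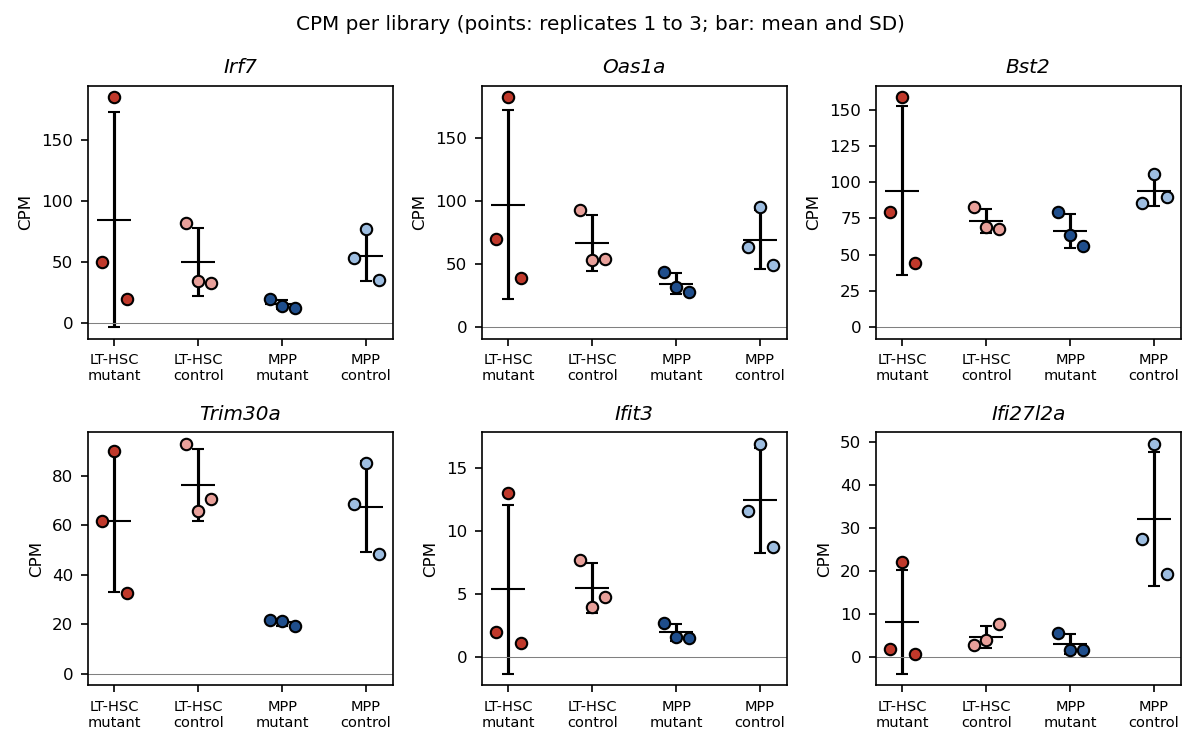
CPM on a linear axis in each library for Irf7, Oas1a, Bst2, Trim30a, Ifit3 and Ifi27l2a, mutants left of controls within each cell type. Points are libraries and bars are group means with SD. MPP mutant points lie below the MPP control points, and LT-HSC mutant points spread widest except in Ifi27l2a.

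In LT-HSC none of the 33 members passed the test in either direction, where 0.163% of the 12847 genes tested fell and 0.257% rose. None had an unadjusted p under 0.05 by edgeR's quasi-likelihood test, where 1221 of the 12847 genes did, or by DESeq2. The median log2 fold change of the members was 0.26, with 24 above 0 and 9 below, against 0.03 over all genes tested. The standard errors were wide, at a median of 0.505 over the members in LT-HSC and 0.245 in MPP. With the replicate number as a block the LT-HSC median was -0.04. Without LT-HSC mutant 2 the median was -0.41 with 31 of 33 members below 0, and without LT-HSC mutant 3 it was 0.53. Against the 2 Cre-positive LT-HSC controls alone it was 0.49, with 29 members above 0 and 4 below. With the macrophage sum as a covariate it was 0.75, with 30 above 0 and 3 below. No member passed the test in any of these fits.

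The 3 LT-HSC mutant libraries differed from each other in the same order for almost every member. Mutant 2 was the highest of the 3 in 32 of 33 members and mutant 3 the lowest in 33 of 33, where over all genes these shares were 34.1% and 37.3%. Mutant 2 also lay above all 3 LT-HSC controls in 24 members, as in 30.4% of all genes tested, and mutant 3 below all 3 in 30 members, as in 37.9%. Mutant 1 lay above all 3 controls in 2 members (26.5% of all genes tested) and below them in 5 (28.6%), while no member had mutant 2 below all 3 (40.9%) or mutant 3 above them (31.1%). In no member did the 3 mutants all lie below the 3 controls, as in 9.76% of all genes tested, or all above them, as in 6.55%. The median SD of log2 CPM over the members was 1.04 in LT-HSC mutants, 0.480 in LT-HSC controls, 0.286 in MPP mutants and 0.489 in MPP controls, against 0.269, 0.166, 0.135 and 0.165 over all genes in the same order of groups. The summed level of the 33 members was 1389.6 CPM in mutant 1, 2699 CPM in mutant 2 and 811 CPM in mutant 3, against 1886, 1174 and 1159.6 CPM in LT-HSC controls 1, 2 and 3.

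**Figure D4:**
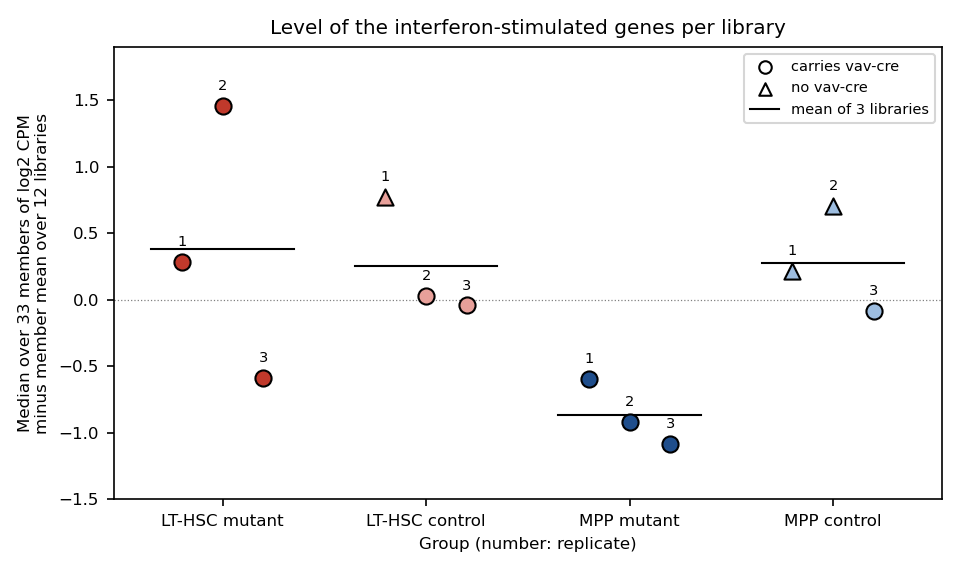
Median over the 33 members of log2 CPM minus the gene's mean over all 12 libraries, 1 point per library, by group with mutants left of controls, and control libraries with and without vav-cre marked. LT-HSC mutants sit at 0.28, 1.46 and -0.59, LT-HSC controls at 0.78, 0.03 and -0.04, MPP mutants at -0.60, -0.92 and -1.09, and MPP controls at 0.21, 0.70 and -0.09.

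Single genes showed the same order. Irf7 was at 49.7, 185 and 18.9 CPM in LT-HSC mutants 1, 2 and 3, against 81.4, 33.8 and 32.6 CPM in LT-HSC controls (log2 fold change 0.83, SE 0.759). Irf9 was at 110.1, 147 and 72.4 CPM in LT-HSC mutants, against 158, 93.1 and 104 CPM in LT-HSC controls (-0.07, SE 0.287). Stat2 was at 61.9, 60.4 and 45.0 CPM in LT-HSC mutants, against 86.2, 50.8 and 52.6 CPM in LT-HSC controls (-0.14, SE 0.233). Stat2 was the 1 member in which mutant 1, and not mutant 2, was highest. All 3 genes overlapped between the genotypes, with mutant 3 below every control.

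Ifit1 was at 19.6, 43.0 and 3.95 CPM in LT-HSC mutants, against 35.6, 24.7 and 6.39 CPM in LT-HSC controls (0.04, SE 0.824). Ifit2 was at 48.5, 58.0 and 29.9 CPM in LT-HSC mutants, against 58.9, 43.1 and 36.6 CPM in LT-HSC controls (0.02, SE 0.275). Ifit3 was at 1.97, 13.0 and 1.10 CPM in LT-HSC mutants, against 7.70, 3.98 and 4.74 CPM in LT-HSC controls (0.01, SE 0.842). The means of the Ifit genes were nearly equal between genotypes, while mutants 2 and 3 differed widely.

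Of the oligoadenylate synthetases, Oas1a was at 70.1, 182 and 39.2 CPM in LT-HSC mutants, against 92.6, 53.5 and 54.3 CPM in LT-HSC controls (0.59, SE 0.522). Oas2 was at 26.5, 115 and 8.19 CPM in LT-HSC mutants, against 27.9, 11.3 and 14.96 CPM in LT-HSC controls (1.51, SE 0.843). Oasl2 was at 91.4, 198 and 46.9 CPM in LT-HSC mutants, against 129, 61.9 and 58.0 CPM in LT-HSC controls (0.48, SE 0.523). In each of these the highest value was that of mutant 2. Oas3 had the largest fold change of the members in LT-HSC, at 1.63 (SE 0.721, adjusted p = 0.541), and reached 83.2 CPM in mutant 2 but 12.2 CPM in mutant 3.

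Bst2 was at 79.4, 158 and 44.2 CPM in LT-HSC mutants, against 82.6, 69.2 and 67.9 CPM in LT-HSC controls (0.41, SE 0.404). Samd9l was at 55.6, 85.5 and 28.0 CPM in LT-HSC mutants, against 88.5, 51.8 and 56.8 CPM in LT-HSC controls (-0.18, SE 0.388). Cmpk2 was at 40.2, 52.8 and 32.7 CPM in LT-HSC mutants, against 69.3, 52.2 and 36.0 CPM in LT-HSC controls (-0.28, SE 0.273). Control 1, without Cre, was the highest library of the 6 for Samd9l and Cmpk2 and mutant 2 for Bst2.

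Trim30a was at 61.9, 90.0 and 32.7 CPM in LT-HSC mutants, against 92.8, 65.5 and 70.8 CPM in LT-HSC controls (-0.27, SE 0.335). Rtp4 was at 42.5, 136 and 20.3 CPM in LT-HSC mutants, against 89.9, 37.9 and 44.4 CPM in LT-HSC controls (0.26, SE 0.653). Ifi35 was at 62.0, 113 and 61.4 CPM in LT-HSC mutants, against 74.2, 61.6 and 57.7 CPM in LT-HSC controls (0.33, SE 0.259). Unlike Trim30a and Rtp4, Ifi35 in mutant 3 lay within the range of the controls.

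Lgals3bp was at 173, 232 and 122 CPM in LT-HSC mutants, against 194, 145 and 159 CPM in LT-HSC controls (0.13, SE 0.230). Ifi27 was at 45.5, 123.1 and 19.1 CPM in LT-HSC mutants, against 45.5, 14.6 and 35.7 CPM in LT-HSC controls (1.02, SE 0.662). Ifi44 was at 24.1, 57.2 and 10.1 CPM in LT-HSC mutants, against 39.5, 11.0 and 12.2 CPM in LT-HSC controls (0.59, SE 0.690). Mutant 2 was the highest of the 6 libraries for all 3. In LT-HSC the macrophage sum was 115, 1705 and 274 CPM in mutants 1, 2 and 3, against 1276, 1586 and 1825 CPM in controls, so that mutant 2, highest in the members, was also highest of the mutants in these markers. The summed level of the hepatoblast markers was 313, 522 and 103 CPM in mutants 1, 2 and 3, the order that the members had, against 588, 1902 and 1920.4 CPM in controls. The part of either list in the order of the mutants was not tested. Mutant 1 had the lowest macrophage sum of the 12 libraries and member levels between those of the other LT-HSC mutants.

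The difference in genotype effect between the cell types passed the test for no member, as an interaction in a fit of all 12 libraries (edgeR's quasi-likelihood test, adjusted p under 0.05). Of the 13249 genes in that fit 0.226% were called higher in this difference and 0.151% lower. The median difference, the log2 fold change in LT-HSC minus that in MPP, was 1.34 over the members and -0.01 over all genes. In edgeR's test 19 members had an unadjusted p under 0.05, as did 1637 of the 13249 genes. DESeq2 called 4 members higher, Gbp3, Lgals3bp, Sp100 and Trim30a, where it called 1.31% of all genes higher. Without LT-HSC mutant 3, 16 members were called higher, where 2.58% of all genes were. Without LT-HSC mutant 2 no member was called, where 28 of 13521 genes were called higher and 14 lower. In that fit 8 members had an unadjusted p under 0.05 by edgeR's test, and the median difference was 0.75.

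In controls the members spanned from rare to abundant transcripts in both cell types. On the per-length TPM scale Bst2 was the most abundant member in both, at 217 ± 29.5 TPM in LT-HSC controls and 249 ± 30.2 TPM in MPP controls (SD, n = 3 each). Next in LT-HSC controls came Lgals3bp at 149 ± 26.5 TPM, Irf9 at 96.8 ± 31.2 TPM and Ifi35 at 96.8 ± 15.3 TPM. In MPP controls the next were Ifi27l2a at 171 ± 85.1 TPM, Ifi27 at 139 ± 43.7 TPM and Lgals3bp at 104 ± 21.8 TPM. These neighbours in MPP did not differ beyond their spread. Mx1 was lowest in LT-HSC controls, at 2.84 ± 1.78 TPM, and Ifi44 in MPP controls, at 2.003 ± 0.799 TPM.

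Set against each other, LT-HSC controls had 3 members higher than MPP controls and 6 lower, where 20.5% of the 12834 genes tested were higher and 18.0% lower. The median log2 fold change was 0.13. Ifi44 was higher by 2.62 (SE 0.510, adjusted p = 0.00305), Rsad2 by 1.02 (SE 0.332, adjusted p = 0.0341) and Gbp2 by 0.59 (SE 0.202, adjusted p = 0.0425). Those lower in LT-HSC controls were Ifi27l2a at -2.74 (SE 0.410, adjusted p = 0.000678), Oas3 at -1.57, Ifi27 at -1.20, Ifit3 at -1.16, Oas2 at -1.07 and Bst2 at -0.34. The counts moved with single libraries: leaving out 1 control at a time gave 1 to 7 members higher and 2 to 8 lower, with 1 higher without LT-HSC control 1, MPP control 1 or MPP control 3, 7 higher without LT-HSC control 3, and 2 lower without MPP control 2. Over all genes, leaving out 1 control gave 1802 to 2546 higher and 1608 to 2327 lower. These controls are also those of the genotype comparisons. Cre was unevenly spread over them, with vav-cre in 2 of 3 LT-HSC controls and 1 of 3 MPP controls. Hepatoblast markers differed as well, with 17 of 18 higher in LT-HSC controls at a median of 2.79. The part of either in these differences was not tested.

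Controls with and without vav-cre were compared within the 6 control libraries, 3 with it and 3 without it, with a term for cell type. This comparison was added after the data were seen. All 6 controls carried the p allele, so an effect of Cre alone and one of Cre acting on that allele cannot be told apart. All 33 members had a log2 fold change below 0, at a median of -0.69 against 0.01 over all genes tested. Only 3 passed, Ifi44 at -1.52 (SE 0.228, adjusted p = 0.0397), Irf7 at -1.09 (SE 0.163, adjusted p = 0.0397) and Samd9l at -0.70 (SE 0.113, adjusted p = 0.0449), where 0.039% of 12834 genes, 5 in all, fell and 0.117% rose. Unadjusted, 28 members had p under 0.05 by edgeR's quasi-likelihood test, as did 652 of the 12834 genes. DESeq2 called 14 members lower, where it called 0.265% of all genes lower. No member was called lower without LT-HSC control 1 or MPP control 2, both without Cre. Over all genes 0 of 13037 and 2 of 13167 were called lower there. The members below 0 were still 33 and 31, at medians of -0.70 and -0.61. Without LT-HSC control 2, 12 were (0.216% of all genes), and without LT-HSC control 3, 6 were (0.131%). Of the 3 members that passed with all 6 controls, 1 still did without MPP control 1 and 2 without MPP control 3. Over all genes 6 and 2 were called lower in these fits. The Cre-positive control lay below both Cre-negative ones in 30 of 33 members in MPP (34.8% of all genes tested), and both Cre-positive controls lay below the Cre-negative one in 31 of 33 in LT-HSC (33.8%). The summed level of 19 hepatoblast markers also differed, at 1902 and 1920.4 CPM in Cre-positive and 588 CPM in Cre-negative LT-HSC controls, and at 614 CPM in the Cre-positive and 409.8 and 292 CPM in Cre-negative MPP controls, and its part in the result was not tested.

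Upstream of the members, the interferons themselves were close to absent from these libraries. Of 21 ligand genes listed none passed the low-count filter, 15 were at 0 in all 12 libraries, and their summed level reached at most 0.531 CPM in any library. Of 5 receptor genes tested 3 fell in MPP mutants, where 18.5% of all genes tested did. Ifnar1 was at 73.1, 66.5 and 68.9 CPM in MPP mutants, against 111, 120.3 and 102 CPM in MPP controls (-0.69, SE 0.0952, adjusted p = 0.000278). Ifnar2 (-0.56, SE 0.133, adjusted p = 0.00732) and Ifngr1, a chain of the interferon gamma receptor (-0.36, SE 0.0899, adjusted p = 0.00949), fell as well. Ifngr2 was at -0.19 (SE 0.129) and Il10rb at 0.07 (SE 0.0852), neither of which passed.

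Of the interferon regulatory factors outside the member list, those that fell in MPP mutants included Irf4 (-2.38, SE 0.379), Irf5 (-1.88, SE 0.137), Irf8 (-1.57, SE 0.141), Irf1 (-0.94, SE 0.119) and Irf2 (-0.46, SE 0.0860). Irf8 is a factor of monocyte and dendritic cell development, and Irf4 and Irf5 act in lymphoid and myeloid cells. Irf3, which responds to nucleic acid sensors, was at -0.17 (SE 0.0910) and did not pass. Of 12 inhibitors of the pathway 8 fell, among them Trex1, a DNase that clears cytosolic DNA, at 25.0, 25.8 and 22.8 CPM in MPP mutants against 54.2, 64.4 and 47.5 CPM in MPP controls (-1.19, SE 0.132, adjusted p = 6.61e-05). Adar, which edits double-stranded RNA (-0.69, SE 0.131), Samhd1, which depletes nucleotides (-0.62, SE 0.105), and Ptpn6, a phosphatase (-0.53, SE 0.101), were the next by p. Over all genes tested in MPP 18.5% fell.

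Beyond the members, 60 other interferon-stimulated genes were listed, of which 57 could be tested in MPP. Of these 44 fell and 1 rose in MPP mutants, at a median log2 fold change of -0.86. Over all genes tested 18.5% fell and 16.5% rose. The lowest p-values were those of Ifi204 at -3.78 (SE 0.272), Ifi205 at -7.27 (SE 0.566), Mnda at -3.89 (SE 0.350) and Phf11b at -2.29 (SE 0.227). Ifi204, Ifi205 and Mnda belong to a family of DNA-binding proteins, and Ifi204 was at 2.11, 1.898 and 2.19 CPM in MPP mutants, against 30.1, 36.4 and 18.4 CPM in MPP controls. Pnpt1, a mitochondrial exoribonuclease, was the gene that rose, by 0.33 (SE 0.0944, adjusted p = 0.0193). In LT-HSC no gene of the receptor, kinase and STAT, regulatory factor, inhibitor and other interferon-stimulated lists passed the test.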

How the data were processed

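RNA from sorted cells (500 to 1000 LT-HSC or 20000 MPP per sample, per the labels' protocols) was made into libraries with a low-input kit from 10 ng of RNA, and no source used here states a strand setting. The authors deposited 1 gene table per library, with expected counts and TPM per the file headers. The submitters' processing notes name STAR, RSEM and build mm10. The sources used here name no version. For testing, the deposited expected counts were rounded to whole numbers, filtered with filterByExpr (minimum count 10, minimum total 15), scaled by TMM and tested with edgeR 4.0.16 in R 4.3.3 (quasi-likelihood test, Benjamini-Hochberg adjustment over all genes tested, threshold 0.05). Each cell type was fitted separately for the genotype effect, the control libraries for cell type, and all 12 libraries for the interaction. The deposited TPM values were used only to set levels of genes beside each other. The test was tried on simulated counts with known changes.

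The members and the other lists were chosen with earlier results of these data known. In each of 6 role groups the 3 members with the highest mean CPM over all libraries were given in full (18 in all), and from the other lists up to 4 called genes with the lowest p. Of 24054 gene symbols 23762 matched the RefSeq annotation by accession and 186 by symbol, and 106 did not. Of 60 other interferon-stimulated genes 59 were in the tables. Some genes of the pathway are not reported here. The response element was searched as GAAA, any 2 bases and GAAA, on both strands, in windows of 300 bases.

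The replicate numbers were taken to pair LT-HSC mutants with LT-HSC controls, since same-numbered libraries deviated together from their group means (Pearson's r over genes of 0.108, 0.147 and 0.175). No label states this pairing, and the numbers in the names of the deposited files differ from those in the sample titles used here and do not pair LT-HSC mutant 1 with LT-HSC control 1, so the block values are uncertain. In MPP (-0.02, -0.21 and -0.18), and between LT-HSC controls and MPP controls (0.06, -0.26 and 0.07), they did not. DESeq2 1.42.0, upper-quartile scaling, no filter, a replicate block, leaving out each library, a joint fit, the Cre genotype of the controls and a macrophage covariate were tried as alternatives.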

Additional observations from a re-analysis of the deposited data

Results flagged for a closer look

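Among the members and the genes of the other lists, 5 were picked out because the effect of genotype differed between LT-HSC and MPP in the interaction test of all 12 libraries (edgeR's quasi-likelihood test, adjusted p under 0.05), and none of the 5 was a member. Irf5 differed by 1.79 on the log2 scale (SE 0.289, adjusted p = 0.0288), at 31.1, 51.2 and 27.2 CPM in LT-HSC mutants against 39.8, 36.5 and 38.6 CPM in LT-HSC controls, and at 28.3, 22.1 and 29.8 CPM in MPP mutants against 85.7, 109 and 98.3 CPM in MPP controls. Irf8 differed by 1.78 (SE 0.221, adjusted p = 0.0114), at 68.9, 62.6 and 53.0 CPM in LT-HSC mutants against 60.2, 50.1 and 46.6 CPM in LT-HSC controls, and at 40.9, 31.1 and 40.1 CPM in MPP mutants against 94.8, 129 and 106 CPM in MPP controls. Trex1 differed by 1.003 (SE 0.183, adjusted p = 0.0441). The marker genes Lyz2, of myeloid cells, and Lyve1, of endothelium and some macrophages, differed by 2.07 and -7.02. Groups of 3 libraries were too small to test for single outlying libraries.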

How the results depend on the processing

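In MPP the count of 28 members that fell was 26 with DESeq2, 28 with upper-quartile scaling, no filter or a replicate block, and 23 to 30 when 1 library was left out. It was 12 in a joint fit of all 12 libraries and 1 in that fit with vav-cre as a covariate. With the macrophage sum as a covariate it was 0. Over all genes the count that fell was 2298 at first and 1353, 631 and 1 under these. The median log2 fold change of the members was -1.07 at first, -1.05 in the joint fit and -0.57 with vav-cre as a covariate. With only Cre-positive controls, which leaves 1 MPP control, it was -0.67 in the joint fit and -0.62 in MPP alone. Under the macrophage covariate the median was -0.53 and 6 members changed sign, Gbp2 to 0.30, Ifi27 to 0.99, Ifit2 to 0.67, Lgals3bp to 0.50, Sp100 to 0.19 and Usp18 to 0.18. That covariate did not overlap between the genotypes, so the 2 cannot be told apart. The cause of the other changes was not tested. In the interaction DESeq2 called 4 members higher, and leaving out 1 library gave 0 to 16. Over all genes these counts were 173 and 0 to 348. Between the controls, 5 members were higher and 7 lower with a replicate block. Leaving out 1 library gave 1 to 7 members higher and 2 to 8 lower. Over all genes 2519 were higher and 2362 lower with the block, and 1802 to 2546 and 1608 to 2327 with 1 library left out. Between Cre-positive and Cre-negative controls the 3 members that fell were 14 with DESeq2, 5 with upper-quartile scaling and 15 with no filter. When 1 library was left out they were 0 to 12. Over all genes 5 fell at first, and 34, 8, 34 and 0 to 28 under these. In LT-HSC no member was called under any alternative tried, and with the replicate block the median was -0.04. The LT-HSC fold changes were less precise than those in MPP, with a median standard error of 0.505 against 0.245. The block changed no call of the 33 members in the genotype comparisons, while the other interferon-stimulated genes that fell in MPP were 42 against 44, and calls over all genes were 3765 against 4337 in MPP and 48 against 54 in LT-HSC.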
